A study of Mus musculus with 5 samples.

Results

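The transcripts described here are those of 8 red cell membrane genes, Slc4a1, Sptb, Ank1, Epb4.2, Rhag, Rhd, Kel and Ermap, in the liver of 10-day-old mice. They were chosen by name, with earlier results of these data known, among the 36401 Ensembl genes of the deposited count tables. Of the 8, 7 were found by gene symbol, while Sptb stands in the tables under its older symbol Spnb1 and was matched by its Ensembl identifier. RNA sequencing had been done on lobe 1 of the liver, with 3 libraries from Mdr2+/- pups and 2 from Mdr2+/+ (wild-type) pups, all of the BALB/C strain and killed on day 10 of life. Mdr2 is the older name of Abcb4, whose product moves phosphatidylcholine into bile. The mutant line had been crossed into BALB/c from Mdr2-/- mice, the genotypes were littermates, and no treatment is named for either group. The labels do not state that each library is a separate pup, and the p-values reflect only how these samples vary, which may be technical.

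Late erythroblasts build the red cell membrane from a lattice of spectrin under the lipid bilayer, held to it by ankyrin and by the anion exchanger band 3. Protein 4.2 and the Rh proteins sit in the same ankyrin-based complex, and several of its surface proteins carry blood group antigens in humans. In fetal and early postnatal mice the liver still houses erythroblasts.

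Libraries held 11944157 to 17312851 estimated counts, and levels are given as CPM, counts scaled to library size with TMM factors. Abcb4 had 101, 97.7 and 92.6 CPM in the Mdr2+/- libraries and 162 and 162 CPM in the Mdr2+/+ libraries, so its level followed the labels. Over all 13959 tested genes, 1680 passed an adjusted p of 0.05, of which 925 were higher (6.63% of those tested) and 755 lower in Mdr2+/- livers. With a single library left out, 697 (without Mdr2+/+ replicate 1) to 1174 genes were called.

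All 8 red cell membrane genes passed the test and were lower in Mdr2+/- livers, against 5.41% of all tested genes called lower. Because the 8 genes were chosen with earlier results of these data known, this count is a description and no independent support. Every Mdr2+/- library lay below both Mdr2+/+ libraries for each of the 8 genes, an arrangement found in 22.7% of all tested genes, while 22.9% lay above. Mdr2+/- levels were 52.1 to 61.8% of the Mdr2+/+ levels. The median log2 fold change (log2FC, Mdr2+/- over Mdr2+/+) of the 8 genes was -0.77, and that of all tested genes was -0.00. Without Mdr2+/+ replicate 1, 5 of the 8 genes were called. The cells that carried these transcripts were not determined. In whole-liver RNA, fewer such cells and less of these transcripts per cell cannot be told apart.

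Slc4a1 encodes band 3, the chloride and bicarbonate exchanger that anchors the skeleton to the membrane (ENSMUSG00000006574, chromosome 11, 102348824 to 102366203, minus strand, mm10). It had 93.9, 95.9 and 96.3 CPM in Mdr2+/- livers, against 172 and 142 CPM in Mdr2+/+ livers. The Mdr2+/- libraries were within a few CPM of each other, and the gap to the lower Mdr2+/+ library was 46.1 CPM. The log2FC was -0.72 (SE 0.08, adjusted p = 0.00108).

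Epb4.2 (Epb42 in current naming; ENSMUSG00000023216, chromosome 2, 121017891 to 121037072, minus strand) encodes protein 4.2, a transglutaminase relative without enzyme activity that binds band 3 and ankyrin. Its levels were 6.83, 7.04 and 6.34 CPM in Mdr2+/- livers and 13.2 and 11.02 CPM in Mdr2+/+ livers (log2FC -0.85, SE 0.13, adjusted p = 0.00381). The gap from the highest Mdr2+/- library to the lower Mdr2+/+ library was 3.98 CPM. The SD was 0.360 CPM among the Mdr2+/- libraries and 1.55 CPM between the 2 Mdr2+/+ libraries.

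Ank1 encodes ankyrin-1, the adaptor between band 3 and spectrin (ENSMUSG00000031543, chromosome 8, 22974844 to 23150497, plus strand). It stood at 12.2, 13.5 and 14.5 CPM in Mdr2+/- livers and at 25.1 and 20.9 CPM in Mdr2+/+ livers (log2FC -0.77, SE 0.11, adjusted p = 0.00348). A short form of Ank1 is also made in skeletal muscle. Of 6 muscle markers, Myh4 and Tnnc2 had no count in any library, and the summed level of the 6 was 5.87 to 7.06 CPM in Mdr2+/- and 5.64 to 7.33 CPM in Mdr2+/+ livers, nearly all of it from Acta1. Ank1 also shares 862 of its 13527 annotated exon bases with the antisense gene Gm15816, which averaged 2.73 counts per library.

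Sptb encodes the beta-spectrin of the lattice (ENSMUSG00000021061, chromosome 12, 76580488 to 76710547, minus strand). Mdr2+/- libraries had 19.2, 17.8 and 23.0 CPM, against 40.0 and 28.2 CPM in Mdr2+/+ libraries (log2FC -0.77, SE 0.15, adjusted p = 0.0118). The Mdr2+/+ libraries differed from each other more than for most of the other genes, and without Mdr2+/+ replicate 1 the log2FC was -0.49 and the call was lost (adjusted p = 0.0939). Sptb overlaps Plekhg3 on the opposite strand by 1 annotated exon base.

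**Figure D1:**
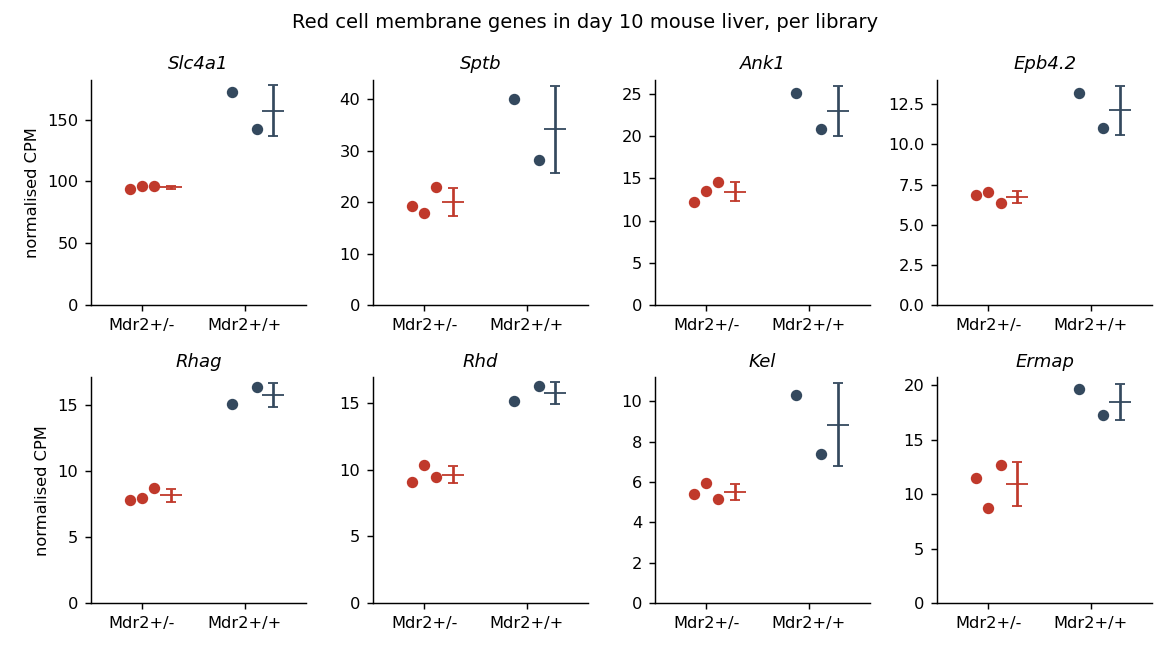
Levels of the 8 red cell membrane genes, with 1 point per library, normalised CPM on a linear axis from 0, and mean and SD beside the points (3 Mdr2+/- and 2 Mdr2+/+ libraries). In each panel the Mdr2+/- points lie below both Mdr2+/+ points, with the smallest gap, 1.45 CPM, for Kel.

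Among the surface proteins, Rhag encodes the Rh-associated glycoprotein, an ammonia and gas channel of the Rh complex (ENSMUSG00000023926, chromosome 17, 40811126 to 40840754, plus strand). Rhag had 7.85, 7.95 and 8.72 CPM in Mdr2+/- livers and 15.1 and 16.4 CPM in Mdr2+/+ livers (log2FC -0.94, SE 0.11, adjusted p = 0.00110). This was the largest fold difference of the 8 genes. Rhd, the mouse Rh blood group gene and the partner of Rhag in that complex (ENSMUSG00000028825, chromosome 4, 134864536 to 134896172, plus strand), had 9.10, 10.3 and 9.48 CPM in Mdr2+/- livers and 15.2 and 16.3 CPM in Mdr2+/+ livers (log2FC -0.70, SE 0.10, adjusted p = 0.00382). For both Rh genes Mdr2+/+ replicate 2 was the higher wild-type library, whereas replicate 1 was the higher for the other 6 genes.

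Kel encodes the Kell glycoprotein, a zinc endopeptidase on the red cell surface (ENSMUSG00000029866, chromosome 6, 41686330 to 41704339, minus strand). Its levels were 5.42, 5.95 and 5.18 CPM in Mdr2+/- livers and 10.3 and 7.40 CPM in Mdr2+/+ livers (log2FC -0.70, SE 0.17, adjusted p = 0.0277). The groups did not overlap, but the call was lost when Mdr2+/+ replicate 1 or any 1 of the 3 Mdr2+/- libraries was left out (adjusted p = 0.0565 to 0.219). Without Mdr2+/+ replicate 1 its log2FC was -0.43.

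Ermap encodes an erythroid membrane protein of the butyrophilin family that carries the Scianna blood group in humans (ENSMUSG00000028644, chromosome 4, 119175457 to 119190011, minus strand). It had 11.5, 8.74 and 12.7 CPM in Mdr2+/- livers and 19.7 and 17.3 CPM in Mdr2+/+ livers (log2FC -0.76, SE 0.15, adjusted p = 0.0119). Relative to its mean, Ermap varied most of the 8 genes among the Mdr2+/- libraries, with replicate 2 lowest, and lost its call without Mdr2+/+ replicate 1 (adjusted p = 0.0855).

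Promoter sequences, from 250 bases before to 50 after the annotated start, were at hand for 6 of the 8 genes (RefSeq, GRCm38.p6), all but Slc4a1 and Ank1. Erythroid genes are commonly driven by GATA1 and KLF1, so letters of the GATA type, meaning the string GATAA or the string GATAG with A or T directly before it, were searched on both strands, and the string CACCC likewise. Such a GATA-type match was present in 6 of the 6 windows and in 29.8% of all 32851 RefSeq windows of this length, and CACCC in 5 of the 6 and in 57.5% of all. The Rhag, Rhd and Kel windows are shown because their matches lie within 60 bases upstream of the start, the Rh genes encode partners of a single complex, and Kel has 2 matches. Capitals mark the GATA-type matches, which read as the reverse complement (TTATCA) in Rhag. The windows are chr17:40810899-40811198 (plus strand) for Rhag, chr4:134864286-134864585 (plus strand) for Rhd and chr6:41704276-41704575 (minus strand) for Kel, each written 5′ to 3′.
Rhag: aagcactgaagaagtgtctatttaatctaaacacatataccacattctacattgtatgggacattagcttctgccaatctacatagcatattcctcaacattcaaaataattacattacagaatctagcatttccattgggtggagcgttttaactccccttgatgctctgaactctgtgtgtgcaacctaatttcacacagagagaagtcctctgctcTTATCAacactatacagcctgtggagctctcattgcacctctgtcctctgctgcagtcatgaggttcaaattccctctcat
Rhd: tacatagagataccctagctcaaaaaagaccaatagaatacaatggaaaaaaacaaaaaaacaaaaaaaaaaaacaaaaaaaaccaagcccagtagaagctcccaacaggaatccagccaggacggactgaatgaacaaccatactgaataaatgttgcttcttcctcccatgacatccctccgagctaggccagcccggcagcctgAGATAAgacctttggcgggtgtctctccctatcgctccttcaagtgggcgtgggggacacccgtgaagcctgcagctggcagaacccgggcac
Kel: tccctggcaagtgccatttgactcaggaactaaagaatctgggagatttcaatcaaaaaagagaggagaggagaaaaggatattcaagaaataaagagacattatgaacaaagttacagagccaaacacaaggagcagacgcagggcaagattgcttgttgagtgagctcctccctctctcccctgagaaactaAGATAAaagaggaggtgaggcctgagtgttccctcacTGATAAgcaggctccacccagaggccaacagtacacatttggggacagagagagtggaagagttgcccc
The matches begin at base -31 of Rhag, -43 of Rhd, and -56 and -19 of Kel, counted from the RefSeq start as base 0. For Rhag and Kel this start differs from the gene limit given above, which came from GENCODE. They are matches of letters only, and binding was not measured.

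Per kilobase of the longest annotated transcript, the order of levels was Slc4a1, Rhd, Rhag, Ermap, Kel, Sptb, Epb4.2 and Ank1. Slc4a1 was far above the rest, at 21.0 ± 0.287 CPM per kilobase in Mdr2+/- and 34.6 ± 4.58 in Mdr2+/+ livers (SD, n = 3 and 2). Rhd followed at 6.36 ± 0.411 CPM per kilobase in Mdr2+/- and 10.4 ± 0.527 in Mdr2+/+ livers. The lowest, Ank1, was at 1.61 ± 0.138 CPM per kilobase in Mdr2+/- and 2.75 ± 0.358 in Mdr2+/+ livers. The first 4 genes kept their order in 5 of the 5 libraries, as did Sptb above Epb4.2. Ermap and Kel, Kel and Sptb, and Epb4.2 and Ank1 each changed places in 1 of the 5 libraries, and these neighbours did not differ beyond their spread.

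Within the group, the share of each of the 2 most abundant genes differed between genotypes by less than the SD of the Mdr2+/+ libraries. For Slc4a1 the difference was larger than the SD of the Mdr2+/- libraries. Slc4a1 made up 51.7 ± 0.553% of the summed level per kilobase in Mdr2+/- and 50.6 ± 1.98% in Mdr2+/+ livers, and Rhd made up 15.7 ± 0.952% in Mdr2+/- and 15.3 ± 2.21% in Mdr2+/+ livers. Of 5 ratios between genes whose proteins are partners, the ratio of Ank1 to Slc4a1 was 0.0765 ± 0.00558 in Mdr2+/- and 0.0795 ± 0.000171 in Mdr2+/+ livers, with overlapping groups (exact two-sided permutation test, p = 0.6). Epb4.2 over Slc4a1 was 0.0780 ± 0.00464 in Mdr2+/- and 0.0852 ± 0.000401 in Mdr2+/+ livers, and here the groups did not overlap (exact permutation p = 0.2).

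Rhag over Rhd was 0.558, 0.499 and 0.596 in Mdr2+/- and 0.644 and 0.651 in Mdr2+/+ livers, so the groups did not overlap (exact permutation p = 0.2). The ratio that differed most was that of Kel to Xk, whose products are joined on the red cell surface. It was 0.887, 1.13 and 0.992 in Mdr2+/- and 1.98 and 1.62 in Mdr2+/+ livers (exact permutation p = 0.1). Xk itself was at 11.1 ± 1.00 CPM in Mdr2+/- and 9.80 ± 0.895 CPM in Mdr2+/+ livers (adjusted p = 0.420). In whole-liver RNA the cells that the Xk transcripts came from were not determined. The lower ratio goes with the lower level of Kel and is no measure of the partners within erythroblasts. With 10 splits of 5 libraries no p can be under 0.1, and the adjusted p over the 5 ratios was 0.25 or above.

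**Figure D2:**
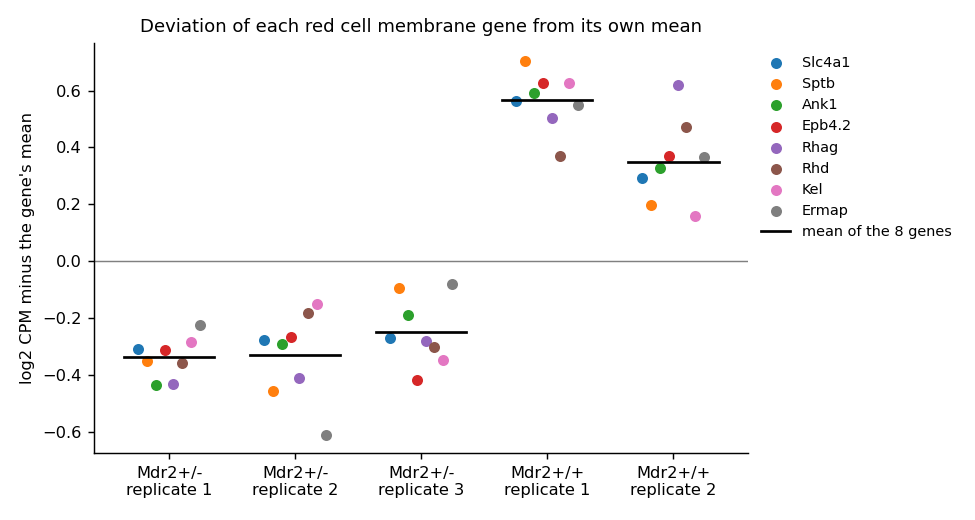
Deviation of each gene's log2 CPM from its own mean over the 5 libraries, with a colour per gene and a black line at the mean of the 8 genes. All 8 genes are below their mean in the 3 Mdr2+/- libraries and above it in the 2 Mdr2+/+ libraries, where the black line is at 0.57 in replicate 1 and 0.35 in replicate 2.

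The 8 genes were set beside haemoglobin transcripts, the most abundant of late erythroblasts and reticulocytes. The 4 adult globin genes Hba-a1, Hba-a2, Hbb-b1 and Hbb-b2 summed to 3729, 3427 and 3179 CPM in Mdr2+/- livers and to 6710 and 5551 CPM in Mdr2+/+ livers. The globin copies are nearly identical, so the value of any single copy is uncertain. The 8 membrane genes summed to 166, 167 and 176 CPM in Mdr2+/- livers and to 310.5 and 260 CPM in Mdr2+/+ livers. Per 1000 globin counts there were 44.5, 48.8 and 55.4 membrane gene counts in Mdr2+/- libraries and 46.3 and 46.8 in Mdr2+/+ libraries. The groups overlapped in this ratio, with Mdr2+/- replicate 3 highest, and the ratio of the group means was 1.07 (1.00 to 1.12 with a single library left out). The 4 globin transcripts have 554 to 703 bases and the 8 membrane gene transcripts 1514 to 10394. Fold changes followed transcript length, as given below, and this ratio was not corrected for it.

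**Figure D3:**
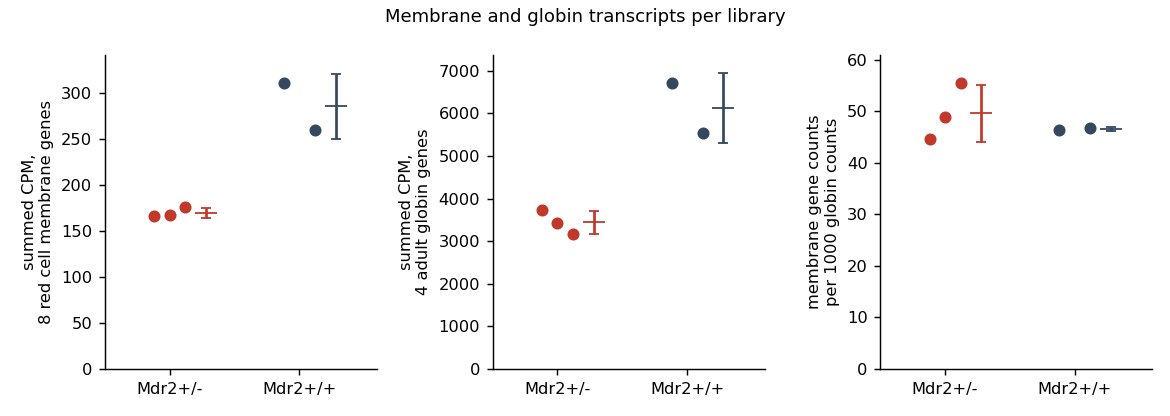
Summed CPM of the 8 red cell membrane genes (left), summed CPM of the 4 adult globin genes (middle) and membrane gene counts per 1000 globin counts (right), with 1 point per library and mean and SD beside the points. Both sums are lower in all 3 Mdr2+/- libraries than in the 2 Mdr2+/+ libraries, while the ratio is 44.5 to 55.4 in Mdr2+/- and 46.3 to 46.8 in Mdr2+/+ libraries.

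Other genes of the red cell membrane were called lower in part. Of 13 tested skeleton and complex partners 7 fell and 0 rose, with a median log2FC of -0.28. Without Mdr2+/+ replicate 1 the list had 2 calls. Stom, which encodes stomatin, passed (log2FC -0.37, adjusted p = 0.0140) but lost its call when either Mdr2+/+ library was left out (adjusted p up to 0.0601). Mpp1, the palmitoylated scaffold p55, passed with a log2FC of -0.26 but missed the threshold in each fit on 4 libraries (adjusted p = 0.0529 to 0.0928). Both are made in many cell types, as are Add1 (log2FC -0.00) and Epb4.1 (log2FC 0.06), the genes of alpha-adducin and protein 4.1, which were not called. Icam4 had no count in any library. Gypc is listed under 2 identifiers of like count, and the value of the one tested (log2FC -0.16) is uncertain. Cd47, among those that fell (log2FC -0.28, adjusted p = 0.0220), also has a symbol that is not unique in the data. It was matched by its Ensembl identifier.

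Of 20 other surface proteins and transporters 5 fell and 0 rose (median log2FC -0.11). They included Cldn13, a claudin of mouse erythroid cells (log2FC -0.80, adjusted p = 0.0242), Kcnn4, the Gardos potassium channel (log2FC -0.73, adjusted p = 0.0210), the amino acid carrier Slc43a1 (log2FC -0.44, adjusted p = 0.0161) and the complement regulator Cd55 (log2FC -0.42, adjusted p = 0.0207). Each of these 4 lost its call in at least 1 fit with a library left out, and the list had 1 call without Mdr2+/+ replicate 2 and 0 calls without Mdr2+/+ replicate 1.

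Of 11 tested paralogs of the 8 genes that serve mainly other cells, 3 rose and 0 fell, with a median log2FC of 0.16, and 1 was called without Mdr2+/+ replicate 1. Mme, a peptidase of the same family as Kel that also marks precursor B cells and granulocytes, rose to 4.66 ± 0.572 CPM in Mdr2+/- livers, against 1.85 ± 0.000991 CPM in Mdr2+/+ livers (log2FC 1.32, adjusted p = 0.00487). Ece1, another peptidase of that family, rose by less (log2FC 0.38, adjusted p = 0.00867; 0.0547 without Mdr2+/+ replicate 1). The widely made spectrin gene Sptbn1 had 95.2 ± 1.81 CPM in Mdr2+/- and 89.5 ± 1.68 CPM in Mdr2+/+ livers (log2FC 0.09, adjusted p = 0.360).

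**Figure D4:**
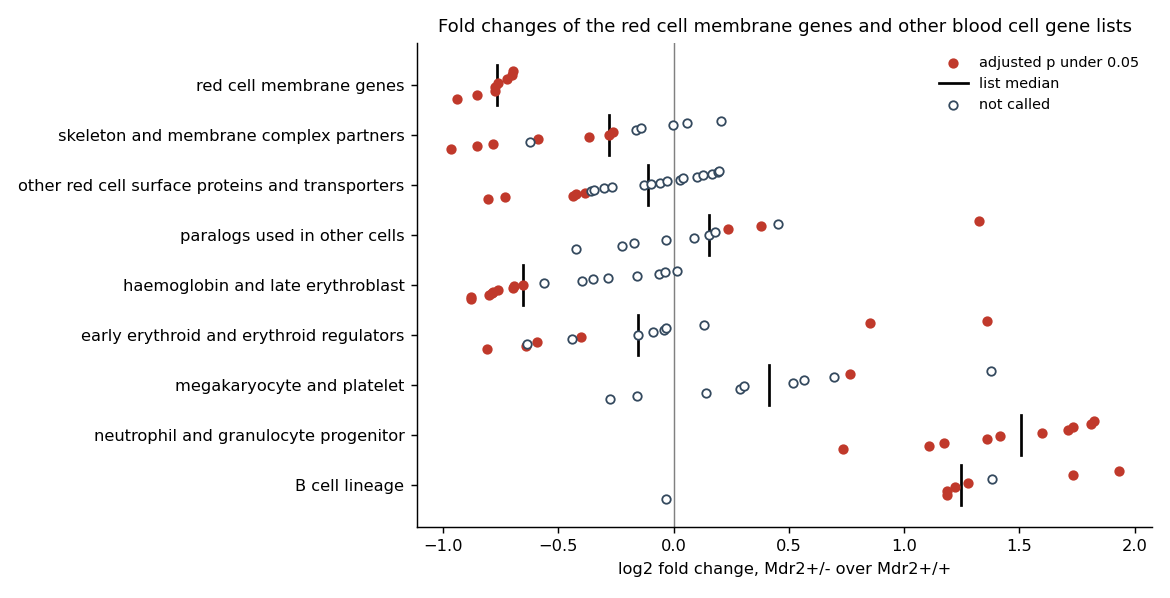
Log2 fold changes (Mdr2+/- over Mdr2+/+) of the tested genes in 9 lists, filled where the adjusted p was under 0.05 and open otherwise, with a black bar at each list's median. The 8 red cell membrane genes lie between -0.94 and -0.70, and the lists of neutrophil and B cell genes have medians of 1.51 and 1.25.

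Of 17 haemoglobin and late erythroblast genes 9 fell and 0 rose (median log2FC -0.65), among them Hba-a1 (log2FC -0.88, adjusted p = 9.65e-04), the carbonic anhydrase Car2 (log2FC -0.69, adjusted p = 4.07e-04) and Hemgn, which encodes hemogen (log2FC -0.79, adjusted p = 8.30e-04). All the adult globin genes named above are among the 9. Their copies are nearly identical, so these calls are not separate results and the value for Hba-a1 is uncertain. Alas2, the erythroid enzyme that starts heme synthesis, was not called (log2FC -0.29, adjusted p = 0.107). Its log2FC was -0.11 without Mdr2+/+ replicate 1 (adjusted p = 0.570) and -0.44 without Mdr2+/+ replicate 2, where it was called (adjusted p = 0.0357), and it was also called with no filter (adjusted p = 0.0338). Of 13 early erythroid genes and regulators 4 fell and 2 rose (median log2FC -0.15), and 2 to 5 were called with a library omitted.

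Klf1, a master regulator of erythroid genes, fell (log2FC -0.64, adjusted p = 0.0371) but was called in 8 of 14 alternative fits. Gata1 was at 3.93 ± 0.225 CPM in Mdr2+/- and 6.03 ± 2.22 CPM in Mdr2+/+ livers and did not pass (log2FC -0.64, adjusted p = 0.0968). The log2FC of Gata1 was -0.18 without Mdr2+/+ replicate 1 (adjusted p = 0.678) and -0.94 without Mdr2+/+ replicate 2 (adjusted p = 0.0225), and Gata1 was called in 2 of 14 alternative fits, the other being that with no filter. Those that rose were Tfrc, the transferrin receptor, which many cells use (log2FC 0.85, adjusted p = 1.97e-04), and Myb, a factor of blood progenitors (log2FC 1.36, adjusted p = 0.00867). Without Mdr2+/+ replicate 1 none of the 4 regulators that fell kept a call.

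Markers of other blood cells were measured in the same libraries. All 10 neutrophil and granulocyte progenitor markers rose, among them Mpo, the myeloperoxidase gene (log2FC 1.81, adjusted p = 4.21e-04), with summed levels of 379 to 486 CPM in Mdr2+/- and 127 to 178 CPM in Mdr2+/+ livers. Not all of these markers kept a call when Mdr2+/+ replicate 1 was left out. Of 8 B cell lineage markers 6 rose, and 3 or 4 were called with any library omitted. They included Cd79b of the B cell receptor (log2FC 1.19, adjusted p = 0.00168), and the sums were 32.5 to 39.3 CPM in Mdr2+/- and 13.3 to 18.6 CPM in Mdr2+/+ livers. Of 10 megakaryocyte and platelet markers 1 rose, against 0 without Mdr2+/+ replicate 2 and 2 without Mdr2+/+ replicate 1, with sums of 75.0 to 96.1 CPM in Mdr2+/- and 46.8 to 70.4 CPM in Mdr2+/+ livers. Of 9 markers of the macrophages that nurse erythroblasts 1 fell. None of them was called in edgeR without Mdr2+/- replicate 2 or without Mdr2+/+ replicate 1, and without Mdr2+/- replicate 3 the count was 1 higher and 0 lower. This list had overlapping sums of 225 to 254 CPM in Mdr2+/- and 228 to 255 CPM in Mdr2+/+ livers. Of 9 hepatocyte markers 1 rose and 0 fell. None of these lists had a marker at 0 in every library, and their part in the lower membrane gene levels was not tested.

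Fold changes in these libraries also followed transcript length. Of the longest 20% of tested genes, above 5164 bases, 1.95% were called lower, and of the shortest 20%, up to 1848 bases, 11.2%. Sptb (10394 bases) and Ank1 (8366 bases) belong to the long class and Rhd (1514 bases) to the short class, and all 3 fell. With an offset for transcript length all 8 genes were called lower, with a median log2FC of -0.84. In that fit 4.21% of the 13571 genes tested were called lower.

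**Figure D5:**
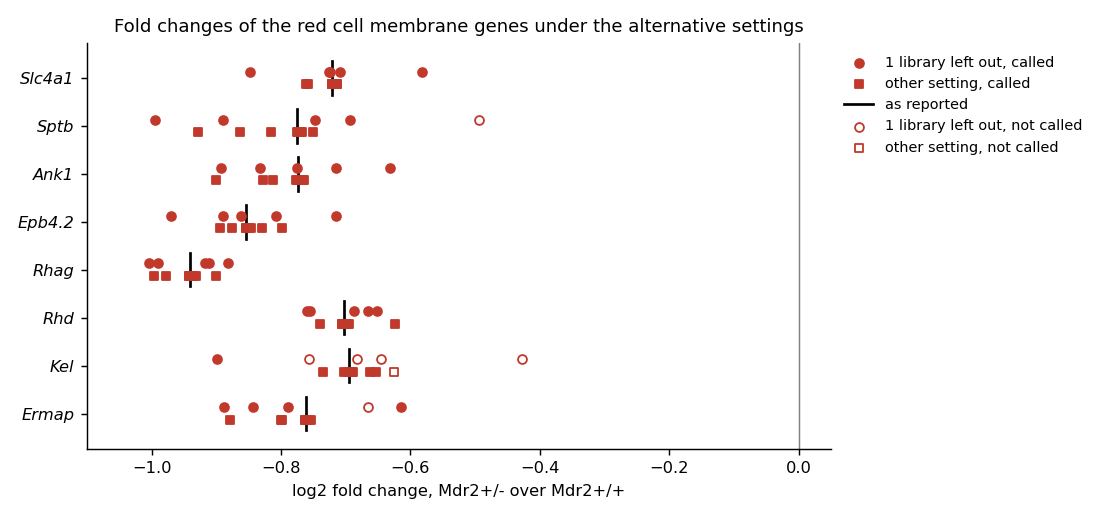
Log2 fold change of each gene as reported (black bar), with 1 library left out (circles) and under the other settings (squares), filled where the adjusted p was under 0.05. All values are below 0, and the open symbols belong to Kel, Sptb and Ermap.

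The genes whose profile over the 5 libraries lay nearest to the mean profile of the 8 genes were sought among the 9988 other tested genes with a mean of at least 5 CPM. The root mean square distance on the log2 scale was 0.04 to 0.15 for the 8 genes themselves. The nearest 8 were AW112010 (0.02), Psme2, a proteasome activator subunit (0.02), Tmcc2 (0.05), the interferon-inducible GTPase Irgm1 (0.05), the aldo-keto reductase Akr1b7 (0.05), Hemgn (0.05), Car2 (0.06) and the helix-loop-helix inhibitor Id2 (0.06). Of these, Tmcc2, Hemgn and Car2 were in the late erythroblast list. The ranking uses the same 5 libraries as the comparison and says only that the levels ran alike.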

How the data were processed

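The authors deposited 1 table per library with an estimated count for each Ensembl gene, scaled to neither depth nor length. Per the submitters' processing notes, TopHat and the build mm10 were used. The sources used here do not give the counting tool, the annotation or the use of strand. Libraries had been made with a TruSeq RNA kit, per the labels' protocols, and the names of the deposited tables give the same run and lane for all 5 libraries.

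Estimated counts were rounded, genes were kept by filterByExpr (minimum count 10), leaving 13959 genes that held 99.9% of all counts, and TMM factors were computed. Genotypes were compared with the edgeR 4.0.16 quasi-likelihood test (two-sided, genotype as sole term). P-values were adjusted after Benjamini-Hochberg across the 13959 genes, and 0.05 was the threshold. SEs were derived from the log2 fold change and its F statistic. R 4.3.3 was used, with limma 3.58.1 and DESeq2 1.42.0 for alternatives, and the procedure was tested on simulated data. A floor of 3 counts is 0.173 to 0.251 CPM, for counting error only, and the 8 genes had 68.8 to 2602 counts per library. Every pair of libraries differed by more than sampling noise (chi-square per degree of freedom 5.30 or more).

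Gene positions and lengths came from GENCODE M21 on mm10, where 87.3% of identifiers matched. Lists were matched by symbol or by Ensembl identifier. The 8 genes and the lists were chosen with earlier results of these data known. The genes named were the 8, up to 4 of each list by p-value, several fixed ones (among them Hba-a1, Alas2, Gata1, Klf1 and Tfrc), Abcb4 and the 8 genes of nearest profile. Add1, Epb4.1, Icam4, Gypc, Cd47, Sptbn1, Xk and the muscle markers were named after their values were seen. Some genes under this rule, and 1 of the 5 ratios, are not reported here.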

Additional observations from a re-analysis of the deposited data

How the results depend on the processing

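The 8 genes kept a negative log2 fold change in all 14 alternative fits, which were 2 other filters, 2 other scalings, DESeq2, robust limma, a replicate block, counts not rounded, each library left out and, chosen after seeing the data, a length offset. All 14 kept the calls of Slc4a1, Ank1, Epb4.2, Rhag and Rhd. With a single library left out, 5 to 8 of the 8 were called (5 without Mdr2+/+ replicate 1), their median log2 fold change was -0.89 (without Mdr2+/+ replicate 2) to -0.65 (without Mdr2+/+ replicate 1), the genes called over the whole table numbered 697 to 1174, and the calls in the other lists 29 to 43, against 49 as reported. Scaling by library size alone split the calls over all genes into 704 higher and 936 lower, against 925 and 755, and left the 8 genes at a median of -0.81. The median was -0.76 without Sptb. Replicate numbers 1 and 2 occur in both genotypes, and deviations of same-numbered libraries from their group means had correlations of 0.03 and 0.03. With 2 Mdr2+/+ libraries their deviations mirror each other, so these correlations are not separate checks. The number was not taken to pair libraries. With the replicate block 7 of the 8 were called and the median was -0.81, Kel having an adjusted p of 0.0762, and 1277 genes were called in all. With 2 and 3 libraries a group, Dixon's outlier test was not applied.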
